A study of Rattus norvegicus with 9 samples.

Results

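The genes described here are 6 markers of the epicardium and of mesothelium, Msln, Upk3b, Upk1b, Lrrn4, Tbx18 and Wt1, taken by symbol from a table of 18629 rat genes. All 6 were found. The cells were primary cardiomyocytes from Sprague-Dawley (SD) rats 1 to 2 days old, isolated by enzymatic digestion of the hearts and infected with adenovirus. In the first group the virus carried wild-type Yap1 (Ad-Yap1 WT), in the second a short hairpin RNA against Yap1 (Ad-Yap1 shRNA) and in the control group green fluorescent protein (Ad-GFP). Each group had 3 libraries, and all 9 shared the same culture: 14 h in 1% serum with 1 g/L glucose, then 33 mM glucose and 100 nM insulin for 48 h, a culture model of the diabetic heart. The labels do not name the promoters of the vectors, the species of the Yap1 cDNA, the number of rats pooled or a step that removed other heart cells, and Ad-GFP cells without glucose and insulin, which they mention, were not analysed here. Nothing says that the 3 libraries of a group came from separate cultures, so the p-values measure only the spread between these libraries.

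The epicardium is the mesothelial sheet that covers the heart, a flat epithelium like that lining the pleura and the peritoneum. In mouse and chick embryos some of its cells lose their epithelial form, enter the heart wall and become fibroblasts and the mural cells of coronary vessels. Yap1 is a coactivator of transcription that the Hippo kinases hold out of the nucleus, it reaches DNA through TEAD factors, and in mice it is needed in the epicardium for coronary vessel formation. Of the 6 genes, 4 encode proteins of the cell surface: Msln is mesothelin, a surface glycoprotein of mesothelial cells, Upk3b and Upk1b are uroplakins, the first a partner of the tetraspanin-type uroplakins and the second itself a tetraspanin, and Lrrn4 is a leucine-rich repeat membrane protein. The other 2, Tbx18 (a T-box factor) and Wt1 (the zinc finger factor of Wilms tumour), are transcription factors used in mice to trace epicardial cells. Tbx18 is also known from mural cells and from the sinus node, so it marks more than the epicardium. In the annotation deposited with the table, Msln, Upk3b, Upk1b and Lrrn4 shared the term membrane, carried by 5684 genes of the table, and Tbx18 and Wt1 shared the term DNA binding, carried by 1380.

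The 6 genes lie on 5 chromosomes, at these positions in the submitters' build rn6. Msln (NCBI gene 60333) spans 15119700 to 15129134 on the minus strand of chromosome 10, and Upk3b (gene 360790) spans 23674902 to 23682395 on the minus strand of chromosome 12. Upk1b (gene 303924) spans 64522008 to 64553234 on the plus strand of chromosome 11. Tbx18 (gene 315870) spans 95359354 to 95387363 on the minus strand of chromosome 8. Wt1 (gene 24883) at 95133221 to 95180574, plus strand, and Lrrn4 (gene 311443) at 125521879 to 125547685, minus strand, are both on chromosome 3. The span of Lrrn4 overlaps Crls1, the cardiolipin synthase gene on the opposite strand, over 1984 bases, and no other member overlaps a gene of the table.

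Upstream sequences are shown for 3 members: Upk1b, which had the larger rise of the 2 that rose with added Yap1, and a pair that fell in both Yap1 groups (Lrrn4 and Upk3b). Each is the 250 bases before the gene's start, read along the gene's strand from RefSeq (build GRCr8), at chr11:75459131-75459380 on the plus strand for Upk1b, chr3:140603987-140604236 on the minus strand for Lrrn4 and chr12:26274241-26274490 on the minus strand for Upk3b. Capitals mark CATTCC, the core of the TEAD recognition sequence. RefSeq entries were matched for 5 of the 6 members, and Msln is named only.
Upk1b: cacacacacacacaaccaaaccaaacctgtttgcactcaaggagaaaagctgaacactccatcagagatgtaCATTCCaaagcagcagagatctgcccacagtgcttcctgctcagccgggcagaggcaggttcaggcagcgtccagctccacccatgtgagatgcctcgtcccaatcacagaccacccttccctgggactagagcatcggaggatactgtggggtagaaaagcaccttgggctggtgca
Lrrn4: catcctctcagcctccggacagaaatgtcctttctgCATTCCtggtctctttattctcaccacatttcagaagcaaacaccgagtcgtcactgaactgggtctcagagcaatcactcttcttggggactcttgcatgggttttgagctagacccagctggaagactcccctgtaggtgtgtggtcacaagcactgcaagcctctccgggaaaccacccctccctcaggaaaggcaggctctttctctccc
Upk3b: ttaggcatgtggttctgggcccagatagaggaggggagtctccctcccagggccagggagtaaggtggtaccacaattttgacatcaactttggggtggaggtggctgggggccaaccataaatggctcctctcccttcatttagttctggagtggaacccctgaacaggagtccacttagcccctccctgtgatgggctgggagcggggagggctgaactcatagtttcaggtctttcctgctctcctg

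CATTCC or its reverse complement GGAATG was found in Upk1b, 178 bases before the start, and in Lrrn4, 214 bases before it, and in none of the windows of Upk3b, Tbx18 and Wt1. It occurred in 12.1% of the 33469 rat promoter windows of the same length. In Upk1b the surrounding letters gave the longer form ACATTCCA (or TGGAATGT), which contains the core and occurred in 1.15% of windows. The CCAAT box (CCAAT or ATTGG), in 34.0% of windows, was found 78 bases before the start of Upk1b and 84 before that of Tbx18. A TATA box (TATAAA or TTTATA, 12.9% of windows), a GC box (GGGCGG or CCGCCC, 30.5%), a short T-box element (AGGTGTGA or TCACACCT, 0.959%) and a WT1/EGR site (GCGTGGGAG or CTCCCACGC, 0.338%) were found in none of the 5 windows. These matches describe letters, and binding was not measured. Of the 2 genes with the core, one rose and one fell with added Yap1, as given below.

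Levels are given as CPM (a gene's assigned reads scaled to library size with TMM factors) where libraries are compared for one gene, and as deposited TPM (a share of transcripts, corrected for transcript length) where genes are compared with each other. The libraries held 10960051 to 11497104 assigned reads with Yap1 WT, 6103221 to 6357403 with Yap1 shRNA and 14868180 to 15368473 with GFP, so low genes were counted least precisely in the shRNA group. Yap1 itself stood at 559, 812 and 622 CPM in Yap1 WT libraries, at 95.4, 96.0 and 95.3 in Yap1 shRNA libraries and at 197, 198 and 190 in GFP libraries. In CPM it was thus 3.41-fold higher with Yap1 WT (log2 fold change 1.77) and 2.04-fold lower with the shRNA (log2 fold change -1.03) than in GFP libraries, as the labels say. In TPM Yap1 averaged 415 with Yap1 WT and 54.1 with GFP, a larger rise than in CPM. The transcript length recovered for Yap1 was 2060 to 2270 bases in Yap1 WT libraries and 4340 to 4348 in GFP libraries. The cause of that difference was not tested. Of cardiomyocyte markers all 10 listed were detected in every group, which does not give the share of cardiomyocytes in the cultures. The summed level of these 10 markers was 7342 to 11727 TPM with Yap1 WT, 2113 to 2516 with Yap1 shRNA and 33573 to 34918 with GFP.

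The first question is what added Yap1 did to these markers. With Yap1 WT, the surface genes Msln, Upk3b and Lrrn4 were lower than in GFP libraries, by 3.73-, 3.39- and 2.13-fold, while Upk1b was 3.42-fold and Tbx18 1.61-fold higher. Wt1 did not pass the test. Thus 5 of 6 members were called (2 higher, 3 lower), where the background is that 63.8% of the 13708 genes tested were called at an adjusted p under 0.05 (32% higher, 31.8% lower). The CPM of the groups did not overlap for the same 5, as for 70.7% of all genes. Neither count is particular to the members. All p-values are from edgeR's quasi-likelihood test, adjusted by Benjamini and Hochberg over all genes tested. The median log2 fold change of the 6 was -0.51, beside 0.003 over all genes.

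With Yap1 knocked down, which is the second comparison, Msln was 21-fold and Lrrn4 18.4-fold lower than in GFP libraries, and Upk3b had 1 count in all shRNA libraries, against 584 in the GFP libraries. Upk1b was 1.51-fold and Tbx18 2.51-fold higher, and Wt1 did not pass the test. Again 5 of 6 members were called (2 higher, 3 lower), against a background of 78.3% of all genes (39.2% higher, 39.1% lower), and the groups did not overlap for any of the 6, as for 80.2% of all genes. The median was -1.91, beside -0.012 over all genes. Both comparisons use the same GFP libraries, so their directions are not independent. From the lowest fold change upward among 13708 genes, Upk3b stood 8th, Msln 79th and Lrrn4 91st.

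**Figure D1:**
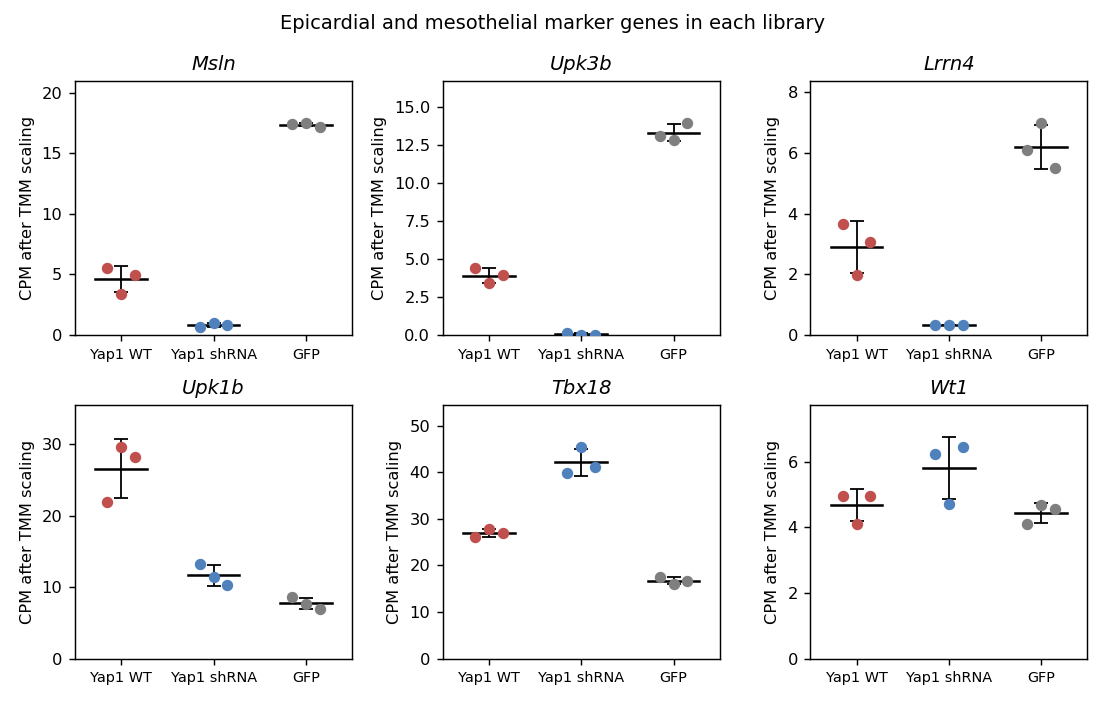
CPM after TMM scaling (linear axis from 0) of the 6 marker genes in each library, with Yap1 WT, Yap1 shRNA and GFP groups from left to right; points are libraries, the long bar is the mean and the whiskers are 1 SD of 3 libraries. Msln, Upk3b and Lrrn4 were lowest with the shRNA and highest with GFP. Upk1b was highest with Yap1 WT, Tbx18 was highest with the shRNA, and the groups overlapped for Wt1 between Yap1 WT and both others.

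Msln stood at 5.55, 3.42 and 4.96 CPM in the 3 Yap1 WT libraries, at 0.639, 1.012 and 0.805 in the Yap1 shRNA libraries and at 17.4, 17.5 and 17.2 in the GFP libraries. The 3 groups were fully separate, with every shRNA library lowest and every GFP library highest. The log2 fold change was -1.90 with Yap1 WT (SE 0.15, 95% interval -2.22 to -1.58, adjusted p = 2.01e-07 by edgeR) and -4.39 with the shRNA (SE 0.23, interval -4.90 to -3.89, adjusted p = 1.52e-09), each against GFP. Among relatives of mesothelin, Mslnl, a mesothelin-like gene, did not pass the test against GFP (adjusted p = 0.478 with Yap1 WT and 0.529 with the shRNA). Muc16, the mucin to which mesothelin binds in humans, had 12 counts in all with Yap1 WT, 1 with the shRNA and 27 with GFP and was too low to be tested.

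Upk3b had 4.39, 3.42 and 3.93 CPM in Yap1 WT libraries, 0.160, 0 and 0 CPM in Yap1 shRNA libraries and 13.1, 12.9 and 13.9 CPM in GFP libraries. In the shRNA group it was nearly undetected: the single count was in replicate 1, and the 2 libraries with 0 counts allow up to 3 counts each. With Yap1 WT the log2 fold change was -1.76 against GFP (SE 0.15, interval -2.09 to -1.43, adjusted p = 5.14e-07). The GFP to shRNA ratio of counts, scaled by library size, was 245 (95% exact interval 43.7 to 9680, counting error only), and edgeR's adjusted p was 7.22e-10.

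Lrrn4 had 3.64, 1.97 and 3.08 CPM in Yap1 WT libraries, against 6.11, 6.97 and 5.50 CPM in GFP libraries (log2 fold change -1.09, SE 0.20, adjusted p = 4.32e-04 by edgeR). Under the shRNA it had 0.320, 0.337 and 0.322 CPM (log2 fold change against GFP -4.20, SE 0.36, adjusted p = 1.66e-07). The Yap1 WT libraries thus lay between the other groups without overlap. Its expected counts were whole in none of the 9 libraries, as RSEM gives where reads are divided between places, while those of the other members were whole in all 9. The overlapping Crls1 averaged 25.0 ± 2.24 CPM with Yap1 WT, 23.5 ± 1.93 with the shRNA and 30.6 ± 1.67 with GFP (SD, n = 3 each), and was 1.23-fold and 1.3-fold lower than GFP in the Yap1 WT and shRNA groups. The strandedness of the counting is not stated, so how much of the Lrrn4 signal came from shared reads was not tested. Lrrn2, of the same family, was 12.3-fold higher with the shRNA than with GFP (8.82 against 0.706 CPM) and did not pass the test with Yap1 WT (adjusted p = 0.0609).

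Upk1b went the other way from its fellow uroplakin. It had 21.9, 29.6 and 28.2 CPM in Yap1 WT libraries, 13.3, 11.5 and 10.3 in Yap1 shRNA libraries and 8.603, 7.646 and 6.999 in GFP libraries. All Yap1 WT libraries were above all shRNA libraries, which were above all GFP libraries. The log2 fold change was 1.78 with Yap1 WT (SE 0.13, interval 1.49 to 2.06, adjusted p = 1.23e-07) and 0.59 with the shRNA (SE 0.16, interval 0.25 to 0.93, adjusted p = 0.00368), both by edgeR against GFP. Of other uroplakins in the table, Upk1a and Upk3bl1 were too low to be tested, with 9, 2 and 16 counts of Upk1a in all Yap1 WT, shRNA and GFP libraries. Grhl3, a factor of the bladder lining where uroplakins are best known, was 3.77-fold higher with the shRNA than with GFP and did not pass the test with Yap1 WT (adjusted p = 0.0728).

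Of the pair of transcription factors, Tbx18 passed the test in both Yap1 groups. It had 26.2, 27.8 and 27.0 CPM in Yap1 WT libraries, 39.8, 45.4 and 41.1 in Yap1 shRNA libraries and 17.5, 16.1 and 16.7 in GFP libraries. The 3 groups did not overlap, and the shRNA libraries were the highest. Against GFP the log2 fold change was 0.69 with Yap1 WT (SE 0.08, interval 0.52 to 0.85, adjusted p = 4.27e-06) and 1.33 with the shRNA (SE 0.08, interval 1.16 to 1.49, adjusted p = 3.48e-09). Of the 6 T-box genes tested, Tbx18 included, 3 were higher and 2 lower with Yap1 WT, and 4 were higher and 2 lower with the shRNA, relative to GFP. Tbx15, a factor of limb and skin development, was 16.3-fold higher with the shRNA, and Tbx3, a factor of the conduction system, was 2.74-fold higher, while Tbx20, a cardiomyocyte factor, was 2.43-fold lower.

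Wt1 had 4.97, 4.10 and 4.96 CPM in Yap1 WT libraries, 6.23, 4.72 and 6.44 in Yap1 shRNA libraries and 4.09, 4.67 and 4.55 in GFP libraries. With Yap1 WT its log2 fold change against GFP was 0.08 (interval -0.28 to 0.43, adjusted p = 0.706), and the groups overlapped. With the shRNA it was 0.39 (SE 0.17, interval 0.01 to 0.76, adjusted p = 0.0573); the 2 groups did not overlap in CPM, as was so for 80.2% of all genes, but the adjusted p missed the threshold. Under other settings that adjusted p ran from 0.00577 to 0.205, and without shRNA replicate 2, the lowest of its group, it was 0.0236. With any other shRNA or GFP library left out, the adjusted p of Wt1 was 0.0785 to 0.188 by edgeR. Of its zinc finger relatives, Egr1 and Egr2, growth-factor-induced transcription factors, were 1.36- and 1.71-fold higher with the shRNA than with GFP.

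The third comparison sets the 2 vectors directly against each other, Yap1 WT over Yap1 shRNA. Msln was 5.63-fold, Lrrn4 8.62-fold and Upk1b 2.27-fold higher with Yap1 WT, and Tbx18 was 1.56-fold lower (adjusted p of 6.04e-06, 2.31e-05, 1.06e-05 and 8.42e-06 by edgeR). Upk3b had 139 counts with Yap1 WT against 1 with the shRNA, a ratio of 72.1 (95% exact interval 12.7 to 2870), adjusted p = 3.12e-07. For Wt1 the log2 fold change was -0.31 (interval -0.69 to 0.07, adjusted p = 0.141). So 5 of 6 members were called, 4 higher and 1 lower, beside 62.5% of all genes (31.2% higher, 31.3% lower). The groups did not overlap for those 5, as for 66.1% of all genes. The 6 had a median of 1.84 beside 0.037 over all genes.

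**Figure D2:**
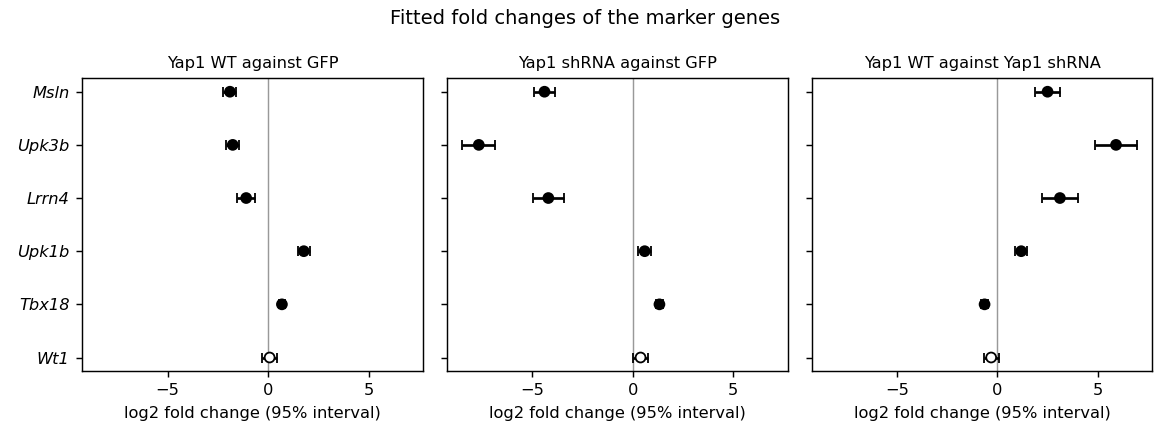
Log2 fold change (horizontal axis, with its 95% interval) of each marker gene in the 3 comparisons, from edgeR; filled points passed an adjusted p of 0.05, open points did not. Msln, Upk3b and Lrrn4 lie left of 0 in both comparisons with GFP and Upk1b and Tbx18 right of it; the point of Upk3b in the shRNA group rests on 1 count.

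Libraries within the Yap1 WT group were uneven in Yap1 itself, replicate 2 having the highest level at 812 CPM. That library also had the lowest Msln, Upk3b, Lrrn4 and Wt1 and the highest Upk1b and Tbx18 of its group. With 3 libraries this is a description, and no correlation was computed.

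Taken per transcript length, the order of the 6 genes differed between groups. With Yap1 WT it was Upk1b (19.30 to 26.09 TPM), Tbx18 (8.21 to 8.66), Upk3b (5.05 to 6.52), Msln (2.53 to 4.13), Wt1 (2.06 to 2.56) and Lrrn4 (0.47 to 0.87), where Msln and Wt1 overlapped. With the shRNA Tbx18 led (13.04 to 14.19 TPM), followed by Upk1b (9.14 to 12.67), Wt1 (2.54 to 3.53) and Msln (0.51 to 0.75), with Upk3b (0 to 0.27) and Lrrn4 (0.08 to 0.09) overlapping at the bottom. In GFP libraries it was Upk3b (16.61 to 18.17 TPM), Msln (11.27 to 11.72), Upk1b (5.39 to 6.72), Tbx18 (4.39 to 4.96), Wt1 (1.84 to 2.18) and Lrrn4 (1.17 to 1.47), with no overlap between neighbours. The summed level of the 6 was 43.9 ± 2.00 TPM with Yap1 WT, 28.2 ± 2.07 with the shRNA and 42.9 ± 1.17 with GFP (SD, n = 3 each). Since the 6 genes were chosen with earlier results of these data known, their sums are given as a description, with no test. The Yap1 WT and GFP sums overlapped and every shRNA sum was below both, although on the CPM scale the means were nearer to each other, at 69.65, 60.76 and 65.8. Msln, Upk3b and Lrrn4 are the 3 members that were lower than GFP in both Yap1 groups, so their smaller share there follows from the grouping. Together they made up 22.6% of the summed TPM with Yap1 WT (17.9 to 27.7%), 2.84% with the shRNA (2.62 to 3.03%) and 70.4% with GFP (69.4 to 71.7%). Of the uroplakins, the TPM ratio of Upk1b to Upk3b was 2.96 to 5.17 with Yap1 WT, 46.9 in the only shRNA library with a Upk3b count and 0.297 to 0.382 with GFP. In bulk RNA, fewer cells of a type and less RNA per cell cannot be told apart.

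**Figure D3:**
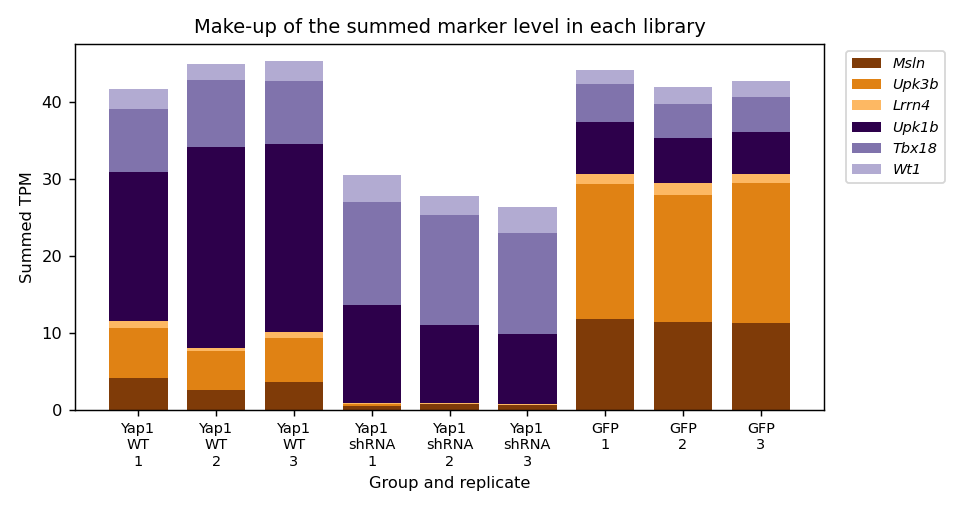
Summed TPM (vertical axis from 0) of the 6 marker genes in each library, coloured by gene, with Yap1 WT, Yap1 shRNA and GFP libraries from left to right. Msln, Upk3b and Lrrn4, the members lower than GFP in both Yap1 groups, are drawn at the base. They take 17.9 to 27.7% of the bar with Yap1 WT, 2.62 to 3.03% with the shRNA and 69.4 to 71.7% in GFP libraries.

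To see which genes ran alongside each member, root-mean-square (RMS) differences of centred log2 CPM were taken over the 9 libraries. Candidates averaged 5 CPM or more and had no provisional symbol starting with LOC, RGD or AABR (10439 for Msln). The 3 genes with the smallest difference from each member are given. For Msln they were Art3 (RMS 0.108), Fxyd1 (0.121) and Plppr5 (0.208), and Art3 averaged 96.7 CPM with Yap1 WT, 21.4 with the shRNA and 337 with GFP. For Lrrn4 they were Col14a1 (0.143), Art4 (0.154) and Adam33 (0.159). For Upk3b they were Col4a3 (0.564), Acan (0.58) and Actc1 (0.589). Upk3b also varied most of the members (RMS from its own mean 2.488). The RMS difference tends to be larger for genes that vary more, so it does not rank closeness between members. For Upk1b they were the complement protease gene C1r (0.151), the chemokine gene Cxcl12 (0.178) and Tapbp (0.181). For Tbx18 they were Mbnl2 (0.053), Fam222b (0.062) and Cited2 (0.063), and for Wt1, which varied least (RMS from its own mean 0.211), Tgds (0.09), Zfp148 (0.098) and Pdcl3 (0.098). Among the members themselves the smallest differences were between Msln and Lrrn4 (0.361) and between Tbx18 and Wt1 (0.44). Tbx18 and Wt1 also varied least (RMS from their own means 0.541 and 0.211), so 0.44 does not show that they moved together.

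Other genes known from the epicardium and mesothelium, 30 listed of which 29 were in the table and 25 were tested, also went in both directions. With Yap1 WT 8 were higher and 15 lower than in GFP libraries (median log2 fold change -0.54), and with the shRNA 8 were higher and 16 lower (median -1.26). Over all genes tested, 63.8% were called with Yap1 WT, 78.3% with the shRNA and 62.5% between the vectors, about evenly in both directions. These shares are the background for the counts of this and every other list, the T-box genes included. Cdh3, the placental cadherin, was 2.61-fold lower with Yap1 WT and 17.1-fold lower with the shRNA, and Gata5, an epicardial and endocardial transcription factor, was 2.97- and 6.19-fold lower. Bcam, a laminin receptor, was 2.57- and 3.9-fold lower, and Ezr, which links membrane to actin, 1.68- and 2.13-fold lower. In the other direction, C3, the central complement component, averaged 144.3 ± 10.7 CPM with Yap1 WT, 36.0 ± 4.38 with the shRNA and 2.07 ± 0.44 with GFP, 69.3-fold and 17.3-fold higher than GFP. Slpi, a protease inhibitor, was 98.7-fold higher with Yap1 WT, a fold that rests on 0.0915 CPM in GFP libraries. Podxl, a surface sialomucin, was 2.26- and 3.56-fold higher, and Sulf1, a heparan sulfatase, was 1.85-fold higher with Yap1 WT. Krt7, a keratin of simple epithelia, was 6.93-fold and Ildr2 4.34-fold higher with the shRNA. Bnc1, a zinc finger factor of mesothelial cells named after its values were seen, was 3.71-fold lower with Yap1 WT and 11.6-fold lower with the shRNA. Between the vectors 16 of the 25 were higher and 4 lower in Yap1 WT libraries (median 0.89), among them Cdh3 (6.53-fold higher), C3 (4.01), Gpm6a (3.93), Efemp1 (3.28), Krt18 (2.84) and Gata5 (2.08), with Krt7 (3.59-fold) and Ildr2 (3.55-fold) lower.

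**Figure D4:**
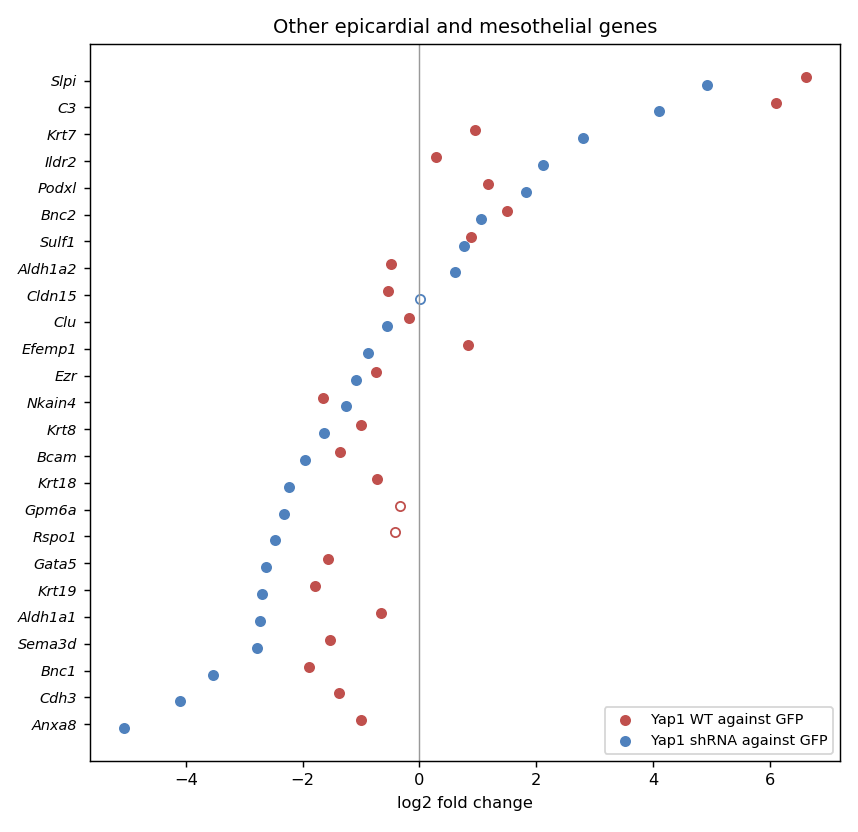
Log2 fold change (horizontal axis) of 25 other epicardial and mesothelial genes with Yap1 WT and with Yap1 shRNA, each against GFP, ordered by the shRNA value; filled points passed an adjusted p of 0.05. C3 and Slpi stand highest in both, and Anxa8, whose fitted value rests on 0.110 CPM in shRNA libraries, is lowest with the shRNA.

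Genes of the change from epithelial to mesenchymal form, which epicardial cells pass through in the embryo, did not move as one. Of 15 tested, 3 were higher and 8 lower with Yap1 WT than with GFP (median -0.29), and 3 were higher and 10 lower with the shRNA (median -0.65). Vim, the mesenchymal intermediate filament vimentin, was 1.66- and 2.37-fold lower, Acta2, smooth muscle actin, 2.35- and 3.17-fold lower, and Tcf21, a factor of epicardial cells and fibroblasts, 2.24- and 7.83-fold lower. Zeb1 was 1.64-fold lower with Yap1 WT and Cdh2, N-cadherin, 1.76-fold lower with the shRNA. The epithelial cadherin Cdh1 was too low to be tested, with 20, 13 and 4 counts in all Yap1 WT, shRNA and GFP libraries. These counts are not scaled for depth, and in TPM Cdh1 had 0.14 to 0.25, 0.17 to 0.34 and 0 to 0.08 in the same order. Set against the shRNA, Yap1 WT libraries had more of Pdgfra, a receptor of fibroblasts and their precursors (6.3-fold), of Tcf21 (3.49-fold), Twist1 (1.66-fold) and Cdh2 (1.43-fold); of the list 8 genes were higher and 4 lower (median 0.43).

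Retinoic acid, made by the epicardium through Aldh1a2, is a signal from this layer to the heart wall. Of 12 genes of the pathway tested, 2 were higher and 7 lower with Yap1 WT than with GFP (median -0.49), and 5 were higher and 6 lower with the shRNA (median -0.18). Aldh1a2 itself was 1.4-fold lower with Yap1 WT (10.1 ± 0.83 CPM, against 14.2 ± 1.99 with GFP) and 1.52-fold higher with the shRNA (21.7 ± 3.63 CPM). Aldh1a3, a sister enzyme, had no count in any shRNA library, against 2.55 ± 0.17 CPM with GFP, and Aldh1a1 was 6.6-fold lower with the shRNA. Cyp26b1, which breaks retinoic acid down, was 2.5-fold higher with the shRNA. The receptor genes Rarb and Rarg were 2.35- and 1.52-fold lower with Yap1 WT and 2.56- and 1.92-fold lower with the shRNA. Between the vectors 4 of the 12 were higher and 4 lower in Yap1 WT libraries (median -0.11).

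Markers of other heart cells moved in the same comparisons, and their part in the results above was not tested. All 10 cardiomyocyte markers were lower in both Yap1 groups than in GFP libraries (median -1.99 with Yap1 WT and -3.59 with the shRNA). Of 10 fibroblast markers 3 were higher and 5 lower with Yap1 WT and 1 was higher and 9 lower with the shRNA, with summed levels of 3403 to 4607 TPM, 2111 to 2332 TPM and 4474 to 4921 TPM in Yap1 WT, shRNA and GFP libraries. Of 8 smooth muscle and pericyte markers tested 1 was higher and 6 lower with Yap1 WT and 1 was higher and 7 lower with the shRNA (4641 to 6322, 4397 to 4735 and 9693 to 10101 TPM in the same order). Of 8 endothelial markers 4 were higher and 1 lower with Yap1 WT and 7 were higher and 1 lower with the shRNA, at summed levels of 26.4 to 28.2, 38.3 to 41.4 and 18.7 to 19.9 TPM. Of 7 macrophage markers 2 were higher and 1 lower with Yap1 WT and 1 was higher and 4 lower with the shRNA, at 77.1 to 78.4, 33.2 to 49.3 and 57.4 to 63.1 TPM. The macrophage gene C1qb was at 0 counts in the shRNA group, against 8 counts in all with Yap1 WT and 8 with GFP. Of bladder markers Krt20 was at 0 counts in the shRNA and GFP groups and had 1 count with Yap1 WT. Both genes were too low to be tested.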

How the data were processed

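Messenger RNA was sequenced in 9 libraries (3 Ad-Yap1 WT, 3 Ad-Yap1 shRNA, 3 Ad-GFP). The submitters' processing notes name HISAT2, Bowtie2, RSEM 1.3.1, DESeq2 1.4.5 and the build rn6. The authors deposited expected counts per gene (not normalized, 89.8% of them whole within 0.005) and TPM values scaled by the authors within each library. FPKM values, also the authors' own scaling per transcript length and depth, served here only to recover transcript lengths. Log2 fold changes with p-values and q-values were deposited too, per the file headers; for Upk3b the authors' deposited table gives -7.83 with the shRNA against GFP.

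After rounding to whole numbers, expected counts of all 9 libraries were fitted in edgeR 4.0.16 (R 4.3.3) by group alone, with TMM factors; filterByExpr kept 13708 of 18629 genes and all 6 members. In the shRNA group 1 library was above the filter's limit of 0.904 CPM for Msln and 0 libraries for Upk3b and Lrrn4. The SE is the log2 fold change divided by the square root of F. Alternatives used DESeq2 1.42.0 and limma 3.58.1, other scalings and filters, equal depth and left-out libraries. Scripts were tested on simulated data. All members and Yap1 are named, and of each list up to 4 called genes with the lowest p per comparison (8 for the wider and retinoic acid lists). The members and lists were chosen with earlier results of these data known. Symbols Calb2, Upk2, Upk3a and Cd163 were not analysed here. One gene that this rule names is not reported here.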

Additional observations from a re-analysis of the deposited data

How the results depend on the processing

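Of 306 fold changes of members under alternative settings, 107 with a library left out and 192 under other settings kept their direction and their side of the 0.05 threshold, and those of Msln, Upk3b, Upk1b, Lrrn4 and Tbx18 all did. The exceptions concern Wt1. With Yap1 WT against GFP it was -0.048 at equal depth (adjusted p = 0.905). With the shRNA against GFP it passed the threshold under RLE scaling (0.41, adjusted p = 0.0454), library size only (0.41, 0.0458), a filter of 5 CPM in 3 libraries (0.40, 0.0441), log2(TPM + 1) (0.46, 0.00577), log2(TPM + 0.1) (0.61, 0.00793) and without Yap1 shRNA replicate 2 (0.51, 0.0236); the cause was not tested.

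Low levels set the size of some folds. Upk3b with the shRNA was -10.25 without shRNA replicate 1, which holds its only count, and -4.09 on log2(TPM + 1), where Lrrn4 was -1.09 and Msln -2.94; for Lrrn4 that scale gave -0.47 with Yap1 WT and 0.63 between vectors. Genes called numbered 7991 to 8657, 10410 to 10535 and 7934 to 8473 with one library left out, in the 3 comparisons in the order above. With Yap1 WT the 4391 higher and 4360 lower calls became 5637 and 3344 with library size only (median shift 0.135), 5419 and 2894 on log2(TPM + 1) (0.157) and 5496 and 2820 on log2(TPM + 0.1) (0.161). Between vectors, 4273 and 4289 became 5561 and 3467 with upper quartile scaling (0.139), and library size only shifted the median by 0.115. With the shRNA the median shifted by -0.14 under upper quartile scaling, by 0.205 on log2(TPM + 1) and by 0.209 on log2(TPM + 0.1).

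With the replicate number as a block, 4411 and 4401 genes were higher and lower with Yap1 WT, 5378 and 5374 with the shRNA and 4268 and 4322 between vectors, with 5 members called in each. Deviations of same-numbered libraries correlated at -0.031 to 0.094 and others at -0.112 to 0.056, and 7 of 9 libraries were nearest their own number. The labels do not say what libraries of the same number share, and the main fit used no such block.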
